A study of Danio rerio with 18 samples.

Results

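The 10 pigment cell genes described here were *mitfa*, *tyr*, *tyrp1b*, *dct*, *pmela* and *slc24a5* of melanophores, *gch2*, *xdh* and *aox5* of xanthophores, and *pnp4a* of iridophores. They were taken by gene symbol from a table of read counts over 31901 zebrafish genes, and all 10 symbols were found. The table held 18 whole-animal RNA-seq libraries in 7 groups. At 4 days past fertilization (dpf) there were 2 pools each of wild-type AB, *kif7co63/+* and *kif7co63/co63* embryos, with 20 embryos in a tube. At 6 weeks past fertilization (wpf) there were 3 fish each of AB, *kif7co63/+*, non-scoliotic *kif7co63/co63* and scoliotic *kif7co63/co63*, with 1 fish in a tube. The *kif7co63* allele is a CRISPR-Cas9 indel in *kif7*, a gene of hedgehog signalling and cilia, and it came from 1 line that was outcrossed to AB at intervals. By the study's methods, *kif7co63/co63* stocks were made by in-crossing homozygous parents, so they had no AB siblings, and whether the *kif7co63/+* animals did is not given in the sources used here. Hence the allele and other differences between the line and AB cannot be told apart in any comparison with AB.

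Zebrafish carry 3 main kinds of pigment cell, all made from the neural crest. Black melanophores depend on the transcription factor Mitfa and store melanin that is made from tyrosine in melanosomes. Yellow xanthophores hold pteridines, made from GTP, and carotenoids. Silvery iridophores reflect light from stacked purine crystals. The retinal pigment epithelium of the eye makes melanin with the same enzymes as melanophores, so *tyr*, *tyrp1b*, *dct*, *pmela* and *slc24a5* mark both. In whole animals, fewer cells of a type and less RNA per cell cannot be told apart.

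In GRCz11 the melanophore genes lie on separate chromosomes. The transcription factor gene *mitfa* (ENSDARG00000003732) spans chr6:43390387-43433277 on the + strand. Tyrosinase, which starts melanin synthesis, is encoded by *tyr* (ENSDARG00000039077, chr15:43799258-43818697, + strand), and its relatives by *tyrp1b* (ENSDARG00000056151, chr1:19332837-19346048, + strand) and *dct* (ENSDARG00000006008, chr9:53327332-53352682, + strand). The gene *pmela* (ENSDARG00000091298, chr11:3254252-3272020, + strand) encodes the fibril protein on which melanin is laid down, and *slc24a5* (ENSDARG00000024771, chr18:5213338-5227420, + strand) encodes the melanosomal ion exchanger behind the golden mutant. Among the xanthophore genes, *gch2* (ENSDARG00000099101, chr12:25085751-25092570, + strand) encodes the GTP cyclohydrolase that starts pteridine synthesis. The oxidase genes *xdh* (ENSDARG00000055240, chr17:33340675-33374538, + strand) and *aox5* (ENSDARG00000071475, chr22:14083729-14115316, − strand) act on purines and pterins later in that pathway. The iridophore gene *pnp4a* (ENSDARG00000057575, chr11:24251141-24299538, + strand) encodes a purine nucleoside phosphorylase. Reads of 3 members could be shared with overlapping genes in the annotation. *pmela* overlaps *timeless* on the same strand, *aox5* overlaps *he1.1*, *he1.2* and *he1.3* on the opposite strand, and *pnp4a* overlaps *si:dkey-76p14.2* on the same strand. Over the 18 libraries *timeless* had 20.4 to 85.4 CPM, *he1.1* 0 to 24.4 CPM, and *si:dkey-76p14.2* at most 0.921 CPM.

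Total counts were 44503110 to 69698533 reads per library, and the members had from 30 reads (*slc24a5*) to 20695 reads (*pmela*) in a library. The targeted gene *kif7* had 41.7 to 47.8 CPM in AB fish at 6 wpf and 23.6 to 32.3 CPM in the 9 fish of the *kif7co63* line. At 4 dpf it did not separate the genotypes, with 13.0 and 15.2 CPM in the AB pools and 10.8 and 21.5 CPM in the *kif7co63/co63* pools. These latter pools stood apart from each other. Their distance over the genes that passed a filter on low counts was 176 (Euclidean, log2 CPM). It was 117 between the AB pools and 98.5 between the *kif7co63/+* pools. Pool 1 of *kif7co63/co63* had less signal of the eye. Its summed level of 6 photoreceptor markers was 736 CPM, against 3120 CPM in pool 2 and 1832 to 2118 CPM in the other pools. Ovary markers also differed at 6 wpf, with a sum over 6 genes of 2071 to 2376 CPM in AB, 1207 to 1986 CPM in *kif7co63/+* and 1.26 to 511 CPM in the *kif7co63/co63* fish. Skeletal muscle markers, a sum over 6 genes, had 7280 to 8644 CPM in AB, 12493 to 14734 CPM in *kif7co63/+* and 16486 to 19268 CPM in *kif7co63/co63* fish, and 6 liver markers summed to 9498 to 12451 CPM in AB and *kif7co63/+* and 15713 to 18362 CPM in *kif7co63/co63* fish. Their part in the results was not tested.

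All members were expressed in every library. The levels below are CPM, counts scaled by the TMM-adjusted size of each library. Between genes, levels were compared per length, as RPKM, which is CPM per kilobase of gene model. In AB pools at 4 dpf *tyrp1b* was the most abundant member at 139 RPKM, followed by *gch2* at 84.3, *pmela* at 66.0, *dct* at 63.7 and *tyr* at 24.8 RPKM. Lower were *xdh* at 9.03, *pnp4a* at 6.54, *aox5* at 6.26, *slc24a5* at 3.94 and *mitfa* at 2.31 RPKM. In AB fish at 6 wpf *tyrp1b* (24.3 RPKM) and *gch2* (13.9 RPKM) were still the highest, while *tyr* had moved from the fifth place to below *xdh* and *pnp4a* at 2.06 RPKM, and *slc24a5* was last at 0.295 RPKM. AB fish at 6 wpf had the lowest mean of the 7 groups for *mitfa*, *tyr*, *tyrp1b*, *pmela*, *slc24a5*, *gch2*, *aox5* and *pnp4a*, 8 of the 10 members. The exceptions were *dct*, lowest in non-scoliotic *kif7co63/co63* fish, and *xdh*, lowest in *kif7co63/co63* pools at 4 dpf.

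**Figure D1:**
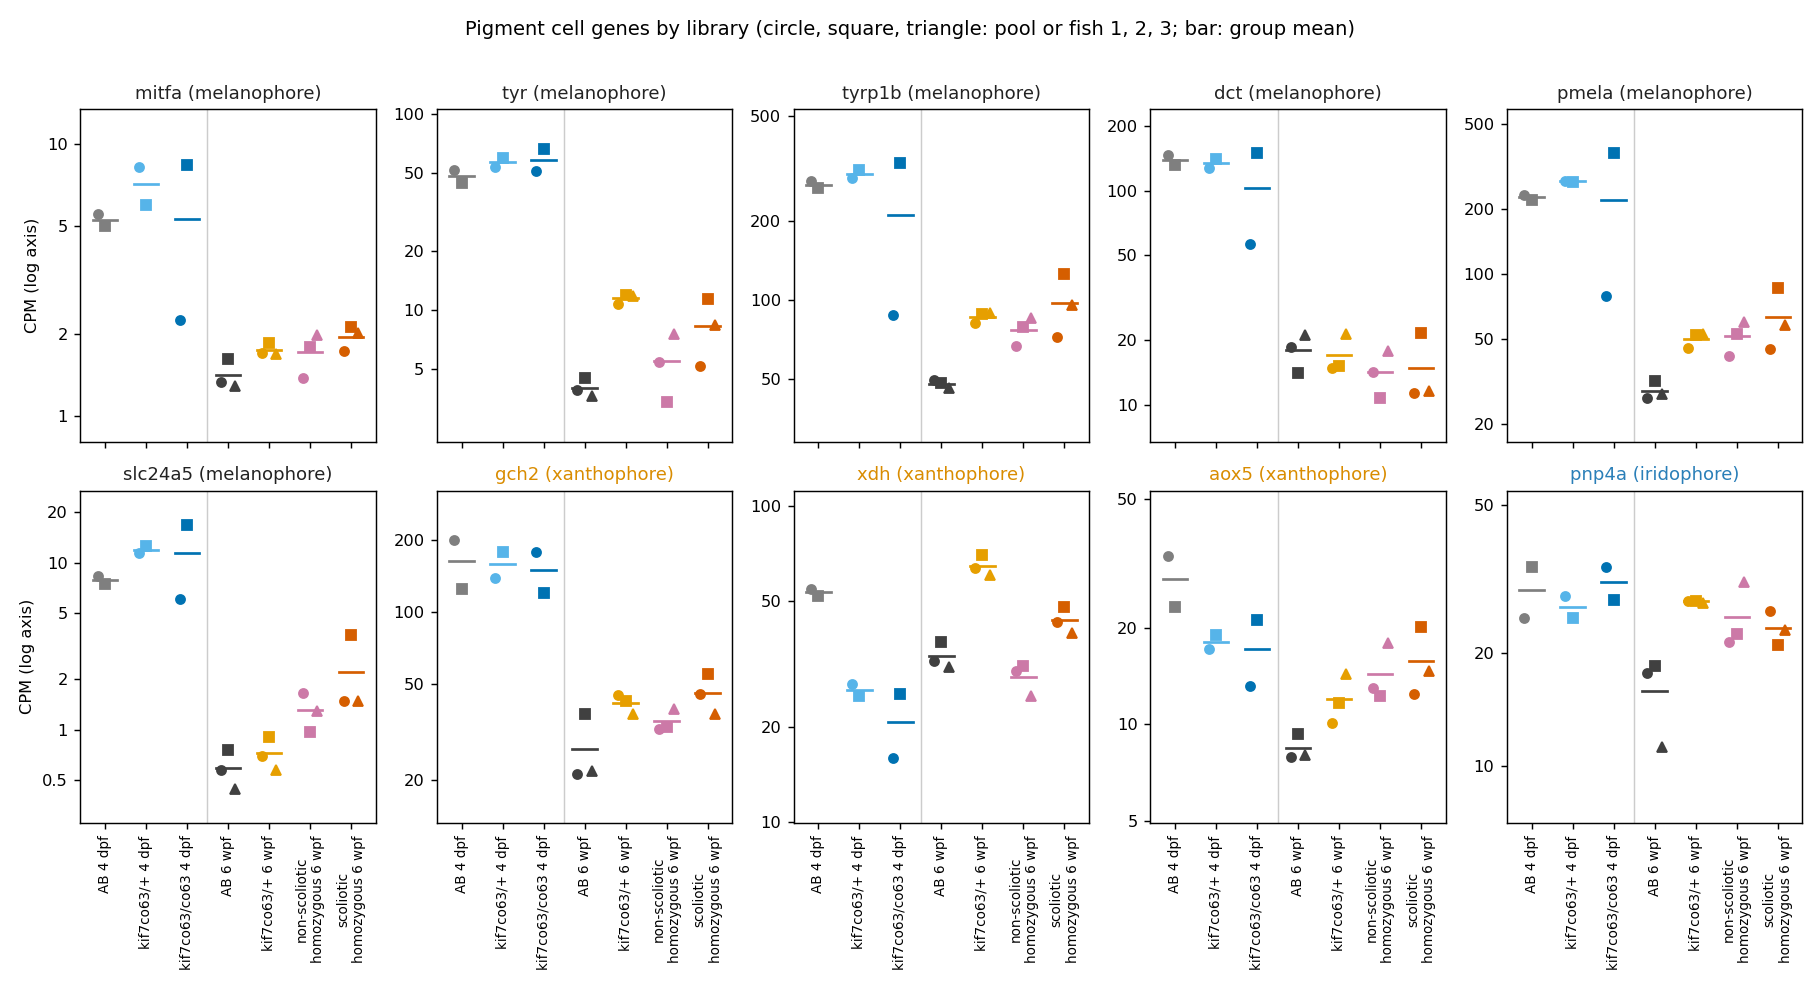
Level of each pigment cell gene (CPM, log axis) in each of the 18 libraries by group, with circle, square and triangle for pool or fish 1, 2 and 3 and a bar for the group mean. Group means of the melanophore genes were higher at 4 dpf than at 6 wpf. For *mitfa*, *tyrp1b*, *dct*, *pmela* and *slc24a5* the 2 *kif7co63/co63* pools at 4 dpf lay far apart. Pool 1 of these was below the highest fish at 6 wpf for *tyrp1b* and *pmela*.

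At 6 wpf 4 of the 6 melanophore genes were called higher than AB in scoliotic, 2 in non-scoliotic and 3 in *kif7co63/+* fish. In scoliotic *kif7co63/co63* fish *slc24a5* was 3.58-fold, *pmela* 2.10-fold, *tyr* 1.98-fold and *tyrp1b* 1.94-fold above AB. In non-scoliotic *kif7co63/co63* fish *pmela* (1.74-fold) and *tyrp1b* (1.55-fold) passed the test, and in *kif7co63/+* fish *tyr* (2.87-fold), *tyrp1b* (1.81-fold) and *pmela* (1.75-fold) did. Counting all members, 5 of 10 were called in scoliotic, 3 in non-scoliotic and 7 in *kif7co63/+* fish, each of them higher than in AB, where called means an edgeR quasi-likelihood p under 0.05 once adjusted (Benjamini-Hochberg) over every gene tested. The call alone does not set the members apart, because 42.1% of all genes were called in the scoliotic, 43.1% in the non-scoliotic and 36.2% in the *kif7co63/+* comparison. Genes called as higher made up 19.2%, 21.2% and 18.6% in that order. No member was called lower than AB in these 3 fits. The median log2 fold change of the 10 members was 0.77, 0.51 and 0.72, against 0.02, 0.04 and 0.03 over all genes tested. These medians are descriptions, since the members were chosen with earlier results of these data known. In the scoliotic fit the medians of other lists were 1.18 for skeletal muscle, -4.90 for ovary and 0.02 for photoreceptor markers. The 3 comparisons share the AB fish, so they do not repeat each other independently.

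In AB fish *tyrp1b* had 49.5, 48.0 and 46.0 CPM. The levels were 81.3, 88.4 and 88.8 CPM in *kif7co63/+*, 66.3, 78.5 and 85.0 CPM in non-scoliotic and 71.8, 125 and 95.1 CPM in scoliotic fish. Every fish of the line was above every AB fish, with log2 fold changes of 0.85 ± 0.10 (SE, adjusted p = 0.000474), 0.63 ± 0.11 (adjusted p = 0.00387) and 0.96 ± 0.20 (adjusted p = 0.00852) in that order. The fibril gene *pmela* followed the same layout, with 26.5, 31.8 and 27.5 CPM in AB, 45.0, 52.1 and 52.5 CPM in *kif7co63/+*, 41.5, 52.7 and 59.4 CPM in non-scoliotic and 44.7, 86.1 and 57.6 CPM in scoliotic fish. Its log2 fold changes were 0.81 ± 0.11 (adjusted p = 0.00132), 0.80 ± 0.15 (adjusted p = 0.00547) and 1.07 ± 0.24 (adjusted p = 0.0114). The calls of both genes held without any 1 fish.

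For *tyr* the group of *kif7co63/+* fish was the highest at 6 wpf, and the tightest relative to its mean (coefficient of variation 5.7%, against 11.3% in AB). AB fish had 3.89, 4.51 and 3.62 CPM and *kif7co63/+* fish 10.7, 11.9 and 11.7 CPM, a log2 difference of 1.52 ± 0.15 (adjusted p = 0.000256). Homozygotes were spread between these levels, at 5.45, 3.41 and 7.52 CPM in non-scoliotic and 5.20, 11.4 and 8.38 CPM in scoliotic fish. The scoliotic fish did not overlap AB (log2 fold change 0.99 ± 0.30, adjusted p = 0.0351), whereas non-scoliotic fish 2 was below all AB fish (0.40 ± 0.29, adjusted p = 0.307). The scoliotic call for *tyr* was lost without AB fish 1 (0.97, adjusted p = 0.0995), AB fish 2 (1.07, adjusted p = 0.0705), AB fish 3 (0.92, adjusted p = 0.109), scoliotic fish 2 (0.69, adjusted p = 0.0725) or scoliotic fish 3 (0.98, adjusted p = 0.0776).

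The exchanger gene *slc24a5* had the lowest level per length (RPKM) in AB, *kif7co63/+* and non-scoliotic fish, was above *mitfa* in scoliotic fish, and had the largest fold of the members there. AB fish had 0.571, 0.759 and 0.444 CPM and *kif7co63/+* fish 0.695, 0.901 and 0.575 CPM, and these groups overlapped (log2 fold change 0.30 ± 0.39, adjusted p = 0.587). Non-scoliotic fish had 1.65, 0.972 and 1.30 CPM and scoliotic fish 1.48, 3.69 and 1.49 CPM. Both homozygous groups lay above all AB and *kif7co63/+* fish, by 1.84 ± 0.48 in scoliotic (adjusted p = 0.0204) and 1.10 ± 0.38 in non-scoliotic fish (adjusted p = 0.0522) against AB on the log2 scale. Scoliotic fish 2 was higher than the other scoliotic fish. Without it the value was 1.26 (adjusted p = 0.0411) and still passed, and the call was lost without AB fish 1 (1.82, adjusted p = 0.0684) or AB fish 3 (1.67, adjusted p = 0.0753).

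The other melanophore members did not pass the test in any of the 3 comparisons. The enzyme gene *dct* had 18.7, 14.0 and 21.1 CPM in AB, 14.9, 15.2 and 21.4 CPM in *kif7co63/+*, 14.2, 10.8 and 17.8 CPM in non-scoliotic and 11.4, 21.6 and 11.6 CPM in scoliotic fish. All 4 groups overlapped, and its log2 fold changes against AB were -0.34 ± 0.29 (adjusted p = 0.39) in scoliotic, -0.38 ± 0.22 (adjusted p = 0.198) in non-scoliotic and -0.06 ± 0.19 (adjusted p = 0.833) in *kif7co63/+* fish. Without scoliotic fish 2, which was higher than the other 2, *dct* was called lower in scoliotic fish at -0.72 (adjusted p = 0.029). The regulator *mitfa* ranged only from 1.29 to 2.13 CPM over the 12 fish, and its log2 fold changes were 0.40 ± 0.25 (adjusted p = 0.235), 0.24 ± 0.28 (adjusted p = 0.525) and 0.31 ± 0.24 (adjusted p = 0.341) in scoliotic, non-scoliotic and *kif7co63/+* fish.

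Markers of the retinal pigment epithelium were raised in *kif7co63/+* fish and not called in either homozygous group. The summed level of the 6 melanophore members averaged 100.4 CPM in AB, with a highest value of 100.7 CPM, and was 154 to 177 CPM in *kif7co63/+*, 130 to 173 CPM in non-scoliotic and 136 to 250 CPM in scoliotic fish. The sum of 7 epithelium markers (*rpe65a*, *rlbp1b*, *rgra*, *best1*, *rdh5*, *stra6* and *mertka*) was 29.3 to 32.7 CPM in AB, 66.1 to 75.0 CPM in *kif7co63/+*, 33.9 to 37.9 CPM in non-scoliotic and 31.2 to 67.5 CPM in scoliotic fish. None of the 7 was at or under 3 reads in any library. In *kif7co63/+* fish 5 of the 7 were called higher than AB, as were 18.6% of all genes, among them *rpe65a*, the retinoid isomerase of this epithelium (log2 fold change 2.56 ± 0.22, adjusted p = 0.00015), and none was called in either homozygous comparison. The highest scoliotic sum, 67.5 CPM, was in fish 2, which also had the highest *tyr*, *tyrp1b*, *dct*, *pmela* and *slc24a5* of its group, and the other 2 scoliotic fish were at 31.2 and 31.5 CPM. The sum of 6 photoreceptor markers was lower in *kif7co63/+* fish than in AB, at 1106 to 1175 CPM against 1245 to 1692 CPM. Of these photoreceptor markers 2 were called higher and 1 lower. The part of the eye in the *tyr* difference of *kif7co63/+* fish was not tested. In non-scoliotic fish *tyrp1b* and *pmela* were above all AB fish, with epithelium sums of 33.9 to 37.9 CPM that were also above all AB fish. In scoliotic fish 1 and 3 both genes were above all AB fish too, with epithelium sums inside the AB range. The part of the eye in these differences was not tested either.

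**Figure D2:**
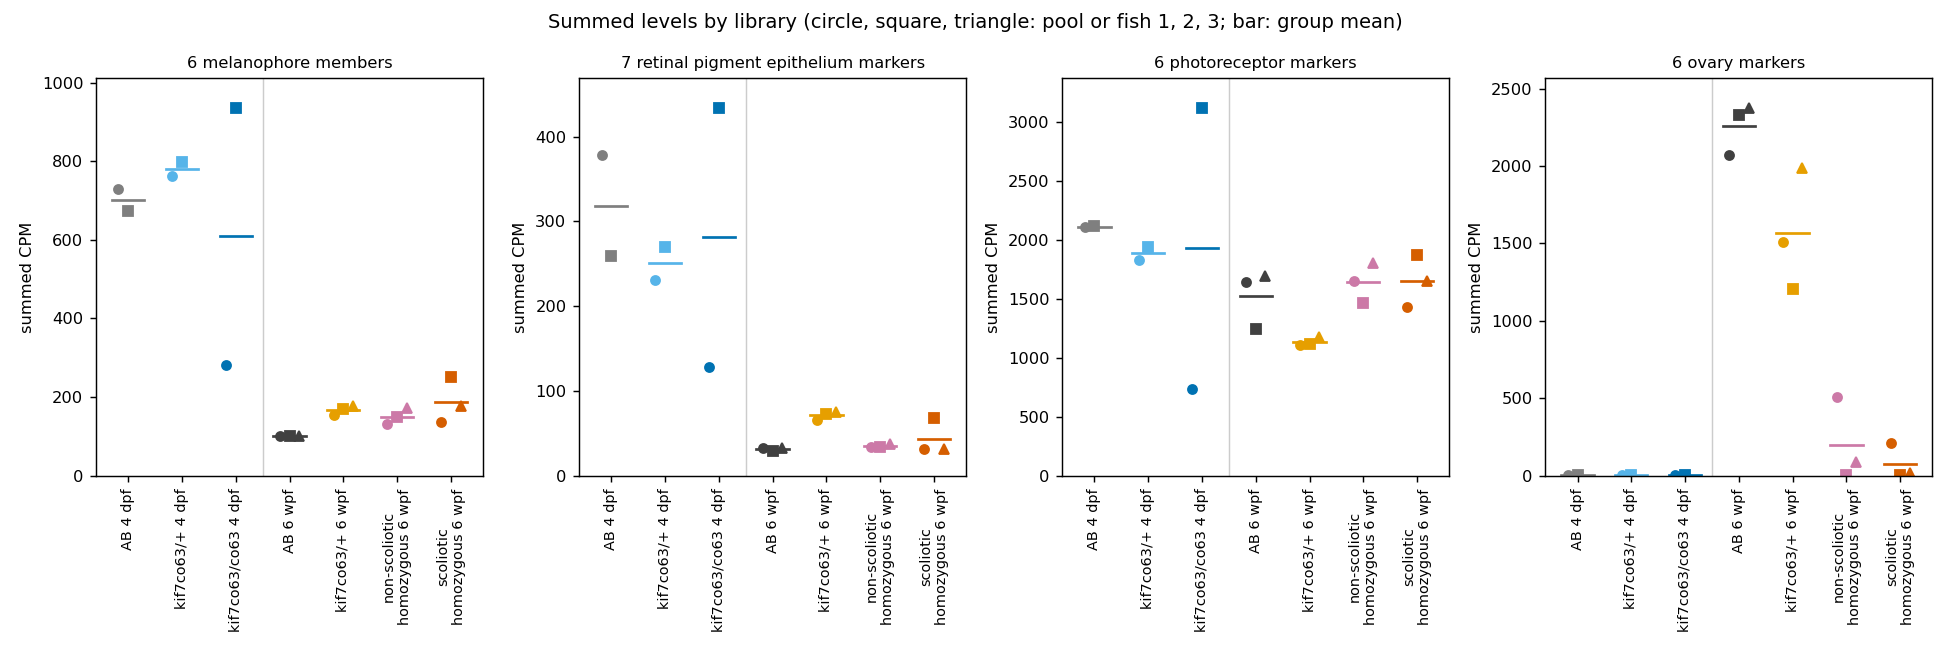
Summed CPM of the 6 melanophore members and of 7 retinal pigment epithelium, 6 photoreceptor and 6 ovary markers in each library by group. At 6 wpf the melanophore sum was above AB in all 3 groups of the *kif7co63* line. The epithelium sum was raised most in the 3 *kif7co63/+* fish and in scoliotic fish 2, and lay a little above AB in the non-scoliotic fish.

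Among the xanthophore genes at 6 wpf, *aox5* was called higher than AB in all 3 groups of the line, and *xdh* and *gch2* passed the test against AB in *kif7co63/+* fish. The aldehyde oxidase gene *aox5* had 7.93, 9.37 and 8.02 CPM in AB, 10.1, 11.7 and 14.3 CPM in *kif7co63/+*, 13.0, 12.3 and 17.8 CPM in non-scoliotic and 12.5, 20.1 and 14.7 CPM in scoliotic fish. Every fish of the line was above every AB fish. The log2 fold changes were 0.51 ± 0.16 (adjusted p = 0.0382), 0.72 ± 0.17 (adjusted p = 0.0127) and 0.83 ± 0.20 (adjusted p = 0.0148) in that order. The scoliotic call for *aox5* was lost without AB fish 1 (0.79, adjusted p = 0.0564) or AB fish 3 (0.80, adjusted p = 0.0567), and the *kif7co63/+* call without AB fish 1 (0.47, adjusted p = 0.107), AB fish 3 (0.48, adjusted p = 0.108), *kif7co63/+* fish 2 (0.52, adjusted p = 0.076) or *kif7co63/+* fish 3 (0.35, adjusted p = 0.106).

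The xanthine dehydrogenase gene *xdh* ordered the groups differently from the other members. It had 32.3, 37.2 and 31.1 CPM in AB, 63.6, 70.1 and 60.4 CPM in *kif7co63/+*, 30.0, 31.1 and 25.1 CPM in non-scoliotic and 43.1, 47.9 and 39.7 CPM in scoliotic fish. The *kif7co63/+* fish were highest and did not overlap any other group, the scoliotic fish came next without overlap with AB, and the non-scoliotic fish lay at or below the lower end of the AB range. Against AB the log2 fold change was 0.95 ± 0.11 in *kif7co63/+* (adjusted p = 0.000588), 0.31 ± 0.10 in scoliotic (adjusted p = 0.0524) and -0.27 ± 0.12 in non-scoliotic fish (adjusted p = 0.12). The scoliotic value passed the threshold without AB fish 2 (0.38, adjusted p = 0.043) or scoliotic fish 3 (0.37, adjusted p = 0.0482).

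The GTP cyclohydrolase gene *gch2* had 21.2, 37.6 and 21.8 CPM in AB, where fish 2 was apart from the other 2, and 45.2, 42.7 and 37.7 CPM in *kif7co63/+* fish. It had 32.7, 33.2 and 39.6 CPM in non-scoliotic and 45.5, 55.3 and 37.7 CPM in scoliotic fish. The *kif7co63/+* fish were above AB by 0.64 ± 0.22 on the log2 scale (adjusted p = 0.0471), and this call was lost without AB fish 1 (0.50, adjusted p = 0.148), AB fish 3 (0.51, adjusted p = 0.141) or *kif7co63/+* fish 1 (0.58, adjusted p = 0.133), 2 (0.62, adjusted p = 0.0937) or 3 (0.70, adjusted p = 0.0508). The scoliotic value of 0.71 ± 0.25 (adjusted p = 0.06) and the non-scoliotic value of 0.34 ± 0.23 (adjusted p = 0.272) did not pass. Scoliotic and *kif7co63/+* fish were not shown to differ in *gch2* (0.14 ± 0.15, adjusted p = 0.514). Without AB fish 2 both values against AB passed, at 1.02 (adjusted p = 0.00929) and 0.66 (adjusted p = 0.0107).

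The iridophore gene *pnp4a* had 17.7, 18.5 and 11.2 CPM in AB, 27.7, 27.7 and 27.3 CPM in *kif7co63/+*, 21.5, 22.5 and 31.1 CPM in non-scoliotic and 26.1, 21.1 and 23.1 CPM in scoliotic fish. All fish of the line were above all AB fish. The difference was called in *kif7co63/+* fish (log2 fold change 0.80 ± 0.18, adjusted p = 0.0102) and not in non-scoliotic (0.62 ± 0.22, adjusted p = 0.064) or scoliotic fish (0.50 ± 0.20, adjusted p = 0.0884). Over all members, the groups did not overlap and the line was higher for 9 of 10 in scoliotic fish (all but *dct*), 5 of 10 in non-scoliotic fish (*tyrp1b*, *pmela*, *slc24a5*, *aox5* and *pnp4a*) and 8 of 10 in *kif7co63/+* fish (all but *dct* and *slc24a5*). The share of all genes that lay higher without overlap was 30.2%, 31.2% and 26.9% in that order.

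**Figure D3:**
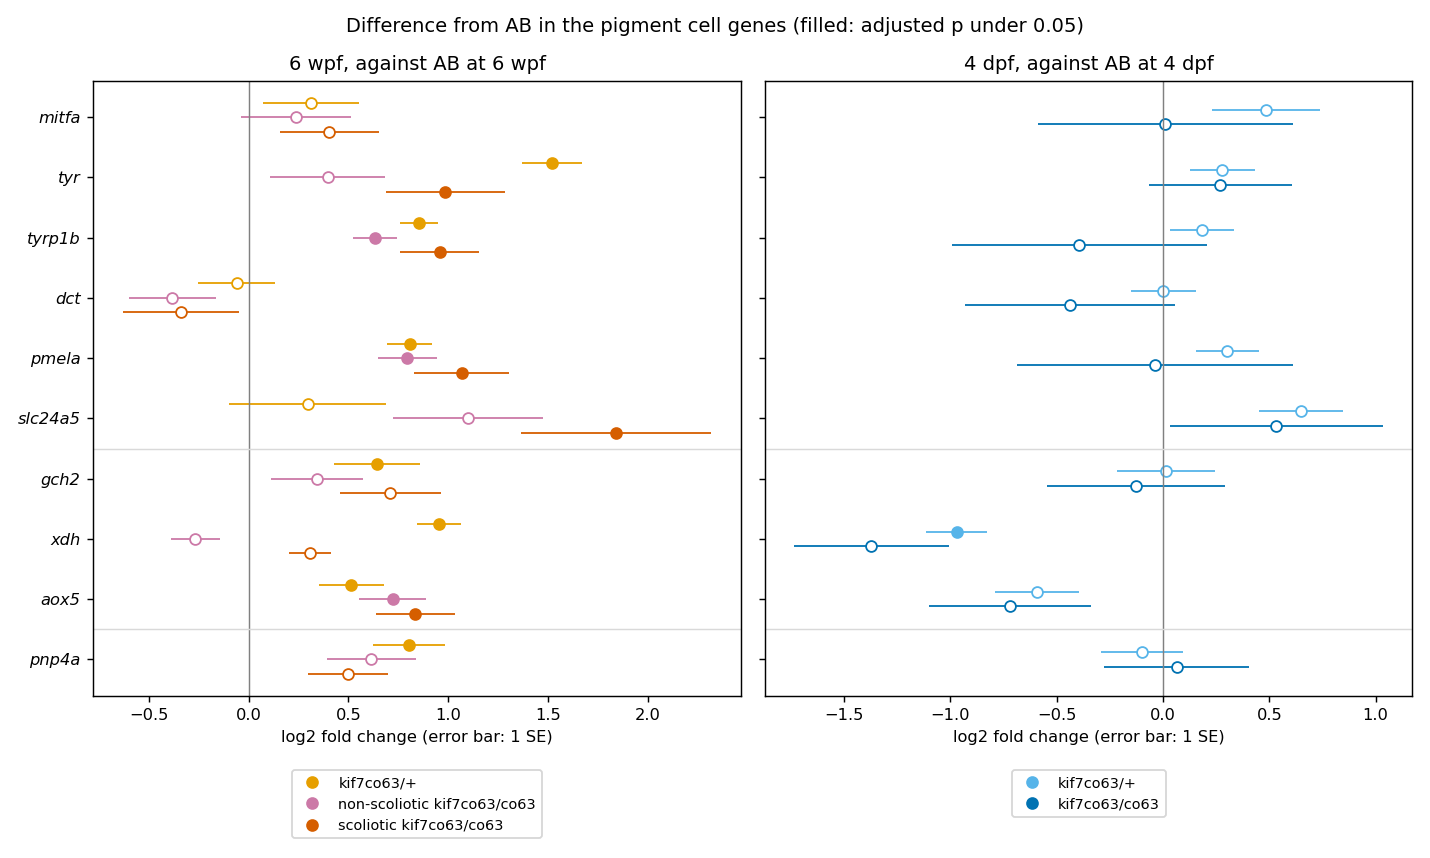
Log2 fold change against AB of the same age, with bars of ± 1 SE, for each pigment cell gene in the 3 groups of the *kif7co63* line at 6 wpf and the 2 at 4 dpf. Filled points passed an adjusted p of 0.05 in edgeR's quasi-likelihood test, all of them above 0 at 6 wpf, and *xdh* in *kif7co63/+* pools the single filled point at 4 dpf, below 0.

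Scoliotic and non-scoliotic *kif7co63/co63* fish share the genotype and differ by the curve of the spine. No member was called between them by edgeR, where 0.38% of all genes were, and 2 had an unadjusted p under 0.05 (*xdh* and *gch2*). DESeq2 called 1, *xdh* (log2 fold change 0.60, adjusted p = 0.0101). All but *pnp4a* were on the positive side, with a median of 0.33 against 0.00 over all genes. Without scoliotic fish 2, *dct* (-0.31), *pmela* (-0.0055) and *aox5* (-0.083) were on the negative side, and without non-scoliotic fish 3 *pnp4a* was on the positive side (0.090). In edgeR *xdh* was 1.52-fold higher in scoliotic fish (0.61 ± 0.13, adjusted p = 0.24), and it was the only member whose groups did not overlap, which 6.41% of all genes did in that direction. The largest other difference was 0.78 ± 0.46 for *slc24a5* (adjusted p = 0.844).

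Against *kif7co63/+* fish, 2 members were called in scoliotic fish, where 36.9% of all genes were. The exchanger gene *slc24a5* was 3.07-fold higher (log2 1.62 ± 0.46, adjusted p = 0.0316) and *xdh* was lower (log2 -0.57 ± 0.11, adjusted p = 0.00869). The *slc24a5* call was lost without *kif7co63/+* fish 1 (1.58, adjusted p = 0.101), 2 (1.81, adjusted p = 0.0591) or 3 (1.47, adjusted p = 0.102) or scoliotic fish 2 (1.04, adjusted p = 0.0682), while without scoliotic fish 2 *tyr* was called lower (-0.75, adjusted p = 0.0489). In non-scoliotic fish 2 members were called, both lower, where 36.6% of all genes were called. The *xdh* level was 2.27-fold lower (log2 -1.18 ± 0.12, adjusted p = 0.000803) and the *tyr* level 2.12-fold lower (log2 -1.08 ± 0.27, adjusted p = 0.0204) than in *kif7co63/+* fish. Without *kif7co63/+* fish 1, 2 or 3 the *tyr* value of -1.13, -1.03 or -1.06 was past the threshold on the other side, with adjusted p of 0.0514, 0.0553 and 0.0546.

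At 4 dpf the xanthophore genes *xdh* and *aox5* were lower in the pools of the *kif7co63* line than in AB pools, the opposite side from 6 wpf for *aox5*. The *xdh* level was 54.6 and 52.1 CPM in AB, 27.4 and 25.1 CPM in *kif7co63/+* and 15.9 and 25.4 CPM in *kif7co63/co63* pools. The AB pools were both above all other pools. The sum of the 6 liver markers was split in the same way. It was 5940 and 5223 CPM in AB, 3212 and 2954 CPM in *kif7co63/+* and 3985 and 3916 CPM in *kif7co63/co63* pools. Its part in the *xdh* and *aox5* differences was not tested. Of the 10 members *xdh* alone was called in *kif7co63/+* pools, at 1.96-fold lower (log2 -0.97 ± 0.14, adjusted p = 0.0104), where 6.21% of all genes were called and 2.37% as lower. This *xdh* call was lost without *kif7co63/+* pool 1 (-1.05, adjusted p = 0.103) or pool 2 (-0.91, adjusted p = 0.101), and when the 6 libraries of the age were fitted together (-0.97, adjusted p = 0.32).

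The *aox5* level at 4 dpf was 33.3 and 23.2 CPM in AB, 17.2 and 18.9 CPM in *kif7co63/+* and 13.2 and 21.1 CPM in *kif7co63/co63* pools. Again both AB pools were above all others, but the differences did not pass the test (*kif7co63/+* log2 -0.59 ± 0.20, adjusted p = 0.119, and *kif7co63/co63* -0.72 ± 0.38, adjusted p = 0.887). In *kif7co63/+* pools *aox5* passed without AB pool 2 (-0.82, adjusted p = 0.000707), where AB is the single pool 1 and the spread comes from the *kif7co63/+* pools only. The third xanthophore gene, *gch2*, had 201 and 125 CPM in AB, 139 and 178 CPM in *kif7co63/+* and 179 and 120 CPM in *kif7co63/co63* pools, all overlapping. The iridophore gene *pnp4a* also overlapped over the whole range of 24.9 to 34.2 CPM.

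Melanophore genes other than *dct* were slightly higher in *kif7co63/+* than in AB pools, and no melanophore gene passed the test. Without overlap, *mitfa*, *tyr*, *tyrp1b*, *pmela* and *slc24a5* were higher (5 of 10 members, against 24.8% of all genes) and *xdh* and *aox5* lower (2 of 10, against 30.9%). The largest melanophore value was *slc24a5*, at 11.4 and 12.5 CPM against 8.32 and 7.47 CPM in AB (log2 0.65 ± 0.20, adjusted p = 0.0902), and the others lay between 0.00 and 0.48. The order of mean levels of *slc24a5* at 4 dpf, *kif7co63/+* over *kif7co63/co63* over AB, was not the order at 6 wpf, where *kif7co63/+* fish were next to AB, but the *kif7co63/co63* pools at 6.04 and 16.9 CPM spanned both other genotypes.

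No member was called between *kif7co63/co63* and AB pools, where 0.509% of all genes were called by edgeR, and DESeq2 called none either. Only *xdh* had an unadjusted p under 0.05 (log2 -1.37 ± 0.36, adjusted p = 0.242). The *xdh* and *aox5* levels did not overlap AB and were lower, 2 of 10 members, against 15.7% of all genes. The 2 *kif7co63/co63* pools were far apart for the melanophore genes. In pool 1 *tyrp1b* had 87.1 CPM and in pool 2 332 CPM, against 284 and 265 CPM in AB and 290 and 312 CPM in *kif7co63/+* pools. Likewise *pmela* had 79.2 and 364 CPM, *dct* 56.6 and 149 CPM, *slc24a5* 6.04 and 16.9 CPM and *mitfa* 2.25 and 8.40 CPM in pools 1 and 2. Pool 1 was below all AB and *kif7co63/+* pools for each of these 5 genes. By contrast *tyr* had 50.9 and 65.9 CPM, *gch2* 179 and 120 CPM and *pnp4a* 34.2 and 27.9 CPM, with pool 1 within or above the range of the other genotypes. The epithelium sum was 128 CPM in pool 1 and 434 CPM in pool 2, and 231 to 379 CPM in the other pools, so it was low and high in the same pools as the melanophore genes, and its part was not tested. Pool 2 was above both AB pools for the 5 melanophore genes, while *xdh* and *aox5* were below AB in both *kif7co63/co63* pools. With pool 1 as the only *kif7co63/co63* pool, *tyrp1b* was at -1.67, *pmela* at -1.53, *dct* at -1.31 and *mitfa* at -1.24 (log2 against AB). There *slc24a5* was at -0.40, *xdh* at -1.76 and *aox5* at -1.11. With pool 2 alone, *xdh* was at -1.07. In both fits the lone pool was assumed to vary like the AB pools.

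Between *kif7co63/co63* and *kif7co63/+* pools no member was called, by edgeR or DESeq2, and none had an unadjusted p under 0.05, with 0.0358% of all genes called. Without pool 2 of the *kif7co63/co63* embryos the log2 values were -1.71 for *mitfa*, -1.84 for *tyrp1b*, -1.30 for *dct* and -1.82 for *pmela*. In the same fit *slc24a5* was at -1.04 and *xdh* at -0.78. These values rest on the 1 pool that stood apart, and the spread in that fit came from the 2 *kif7co63/+* pools only.

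From 4 dpf to 6 wpf all 10 members fell in AB animals, where 58.6% of all genes were called and 28.2% as lower. Every AB fish was below every AB pool for all 10, against 37.1% of all genes. The largest falls were those of *slc24a5*, 13.3-fold (log2 -3.73 ± 0.30), and *tyr* (log2 -3.58 ± 0.15), followed by *pmela* at 7.87-fold, *dct* at 7.68-fold, *gch2* at 6.03-fold and *tyrp1b* at 5.70-fold. The smallest were those of *mitfa* (3.71-fold) and *aox5* (3.33-fold), then *pnp4a* (1.86-fold, log2 -0.89 ± 0.23, adjusted p = 0.0119) and *xdh* (1.58-fold, log2 -0.66 ± 0.12, adjusted p = 0.00181). The *pnp4a* call was lost without AB pool 2 (-0.66, adjusted p = 0.0841). Markers of other tissues moved over the same ages in AB. The epithelium sum went from 259 and 379 CPM to 29.3 to 32.7 CPM, with 6 of its 7 markers called lower (median log2 -2.17), and the ovary sum from 1.71 and 2.17 CPM to 2071 to 2376 CPM. Their part in the falls was not tested.

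In *kif7co63/+* animals 8 members fell with age and *xdh* rose, where 53.8% of all genes were called and 25.5% as lower. The 8 that fell also did not overlap, against 35.4% of all genes. The falls were led by *slc24a5* (log2 -4.05), *dct* (-2.97), *pmela* (-2.44) and *tyr* (-2.31), and *pnp4a* did not differ beyond its error (0.04 ± 0.13). The level of *xdh* was 2.46-fold higher at 6 wpf than at 4 dpf (1.30 ± 0.13, adjusted p = 9.37e-05). The fall of *aox5* (-0.59 ± 0.17, adjusted p = 0.0202) was lost without *kif7co63/+* pool 1 (-0.66, adjusted p = 0.063), pool 2 (-0.52, adjusted p = 0.126) or fish 1 (-0.47, adjusted p = 0.0727). In *kif7co63/co63* animals, with all 6 fish at 6 wpf set against the 2 pools, 7 members fell, where 37.6% of all genes were called and 19.8% as lower. They were the 6 melanophore genes, from *tyr* (log2 -3.09 ± 0.35, adjusted p = 0.000268) to *tyrp1b* (-1.27 ± 0.41, adjusted p = 0.0346), and *gch2* (-1.87 ± 0.22, adjusted p = 0.000291), while *xdh* (0.81 ± 0.29, adjusted p = 0.0561), *aox5* (-0.19 ± 0.25, adjusted p = 0.588) and *pnp4a* (-0.36 ± 0.17, adjusted p = 0.136) did not pass.

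These *kif7co63/co63* age changes of *tyrp1b*, *pmela* and *mitfa* turned on pool 2. With pool 1 as the only pool, *tyrp1b* was at 0.07 on the log2 scale, *pmela* at -0.40 (adjusted p = 0.381) and *mitfa* at -0.22 (adjusted p = 0.666), none of them called, and *xdh* was called higher (1.26, adjusted p = 0.025). The *tyrp1b* call was also lost without non-scoliotic fish 1 (-1.20, adjusted p = 0.0621), 2 (-1.25, adjusted p = 0.0606) or 3 (-1.26, adjusted p = 0.0628), or scoliotic fish 1 (-1.17, adjusted p = 0.0739) or 3 (-1.30, adjusted p = 0.0542). Without non-scoliotic fish 3 *xdh* was called higher (0.89, adjusted p = 0.0375).

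For *aox5* all groups of the line, and for *xdh* all but the non-scoliotic fish, lay below AB at 4 dpf and above it at 6 wpf. The change of each genotype difference with age was tested itself over all genes, as an interaction in 1 fit of all 18 libraries. For *xdh* the difference from AB was higher at 6 wpf than at 4 dpf in *kif7co63/+* (by 1.97 ± 0.25 on the log2 scale, adjusted p = 0.000483), scoliotic (1.75 ± 0.25, adjusted p = 0.00112) and non-scoliotic animals (1.15 ± 0.25, adjusted p = 0.00888). For *aox5* it was higher in scoliotic (1.62 ± 0.37, adjusted p = 0.0104) and non-scoliotic animals (1.49 ± 0.37, adjusted p = 0.0158) and did not pass in *kif7co63/+* (1.16 ± 0.36, adjusted p = 0.0686). Thus 2 of 10 members were called in the scoliotic contrast, 2 in the non-scoliotic and 1 in the *kif7co63/+* contrast, against 13.9%, 13.6% and 7.46% of all genes. The homozygous contrasts share the 2 *kif7co63/co63* pools, and all 3 share the AB libraries. The liver marker sum was also below AB in the pools of the line at 4 dpf, and its part in these contrasts was not tested. The *xdh* calls held without any 1 library, and the *aox5* calls were lost without AB pool 1, whose *aox5* was 33.3 CPM against 23.2 CPM in pool 2 (scoliotic 1.34, adjusted p = 0.067, and non-scoliotic 1.20, adjusted p = 0.093). No melanophore gene was called in the 3 contrasts. With pool 1 as the only *kif7co63/co63* pool, the scoliotic contrast was 2.68 for *tyrp1b*, 2.65 for *pmela*, 2.30 for *slc24a5* and 1.70 for *mitfa*. The non-scoliotic contrast was then 2.34 for *tyrp1b*, 2.36 for *pmela* and 1.51 for *mitfa*. Without AB fish 2 *gch2* was called in the scoliotic contrast (1.23, adjusted p = 0.0397).

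**Figure D4:**
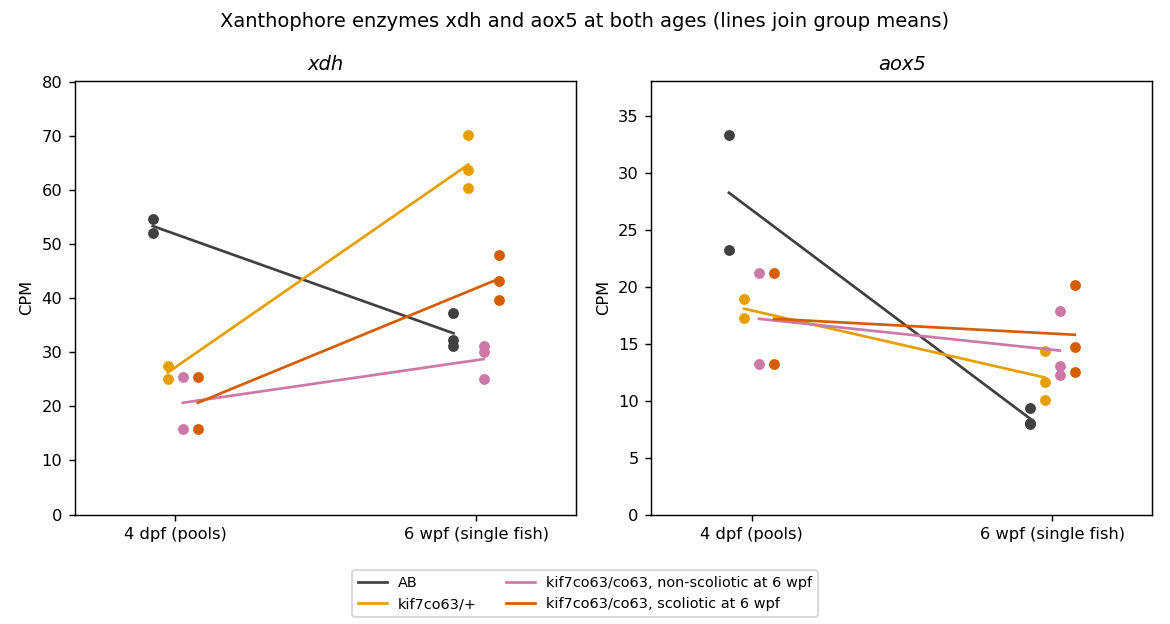
Levels of *xdh* and *aox5* (CPM) in each library at 4 dpf and 6 wpf, with lines joining group means. The same 2 *kif7co63/co63* pools at 4 dpf are drawn for the scoliotic and the non-scoliotic line. The AB pools were above all others at 4 dpf for both genes, and the AB fish below all others at 6 wpf for *aox5*.

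Other genes of the same pathways were read from lists of melanophore, xanthophore and iridophore genes, purine synthesis, stripe patterning, neural crest, pigment hormones and paralogs of the members. Of 12 other melanophore genes, 2 were called higher and 2 lower than AB in scoliotic fish, 3 higher and 1 lower in non-scoliotic fish, and 5 higher in *kif7co63/+* fish. Over all genes 19.2% were called higher and 42.1% in either direction in scoliotic, 21.2% and 43.1% in non-scoliotic, and 18.6% and 36.2% in *kif7co63/+* fish, and the counts of every list here are to be read against these shares. The receptor gene *kita*, needed for melanophore survival and migration, was higher in all 3 (log2 0.88 ± 0.09, 0.74 ± 0.10 and 0.92 ± 0.11), at 9.25 to 9.50 CPM in AB and 14.7 to 18.5 CPM in the line. Its ligand gene *kitlga* was higher in the homozygotes (0.77 ± 0.13 scoliotic and 0.62 ± 0.11 non-scoliotic), and the melanosome motor gene *myo5aa* lower (-0.87 ± 0.28 and -0.76 ± 0.15). The protease gene *bace2*, which limits melanophore growth in zebrafish, was lower in scoliotic fish (-0.42 ± 0.10). In *kif7co63/+* fish *trpm1b* (1.27 ± 0.11), *slc45a2* (1.25 ± 0.30) and *oca2* (1.22 ± 0.29) were higher, the latter both melanosomal transporters. The retinal pigment epithelium sum was raised in the same fish, at 66.1 to 75.0 CPM against 29.3 to 32.7 CPM in AB. Its part in these differences was not tested. In non-scoliotic fish *tyrp1a*, the duplicate of *tyrp1b*, was higher (0.69 ± 0.23).

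Of 12 other xanthophore genes, 4 were higher and 2 lower in scoliotic fish, 4 higher and 1 lower in non-scoliotic fish, and 5 higher and 2 lower in *kif7co63/+* fish. The receptor gene *csf1ra*, which xanthophores need, was higher in all 3 groups (0.81 ± 0.10 scoliotic, 1.04 ± 0.13 non-scoliotic and 0.81 ± 0.10 *kif7co63/+*), as was its ligand gene *csf1a* (1.12 ± 0.28, 1.03 ± 0.27 and 1.65 ± 0.23), although *csf1ra* also marks macrophages. The lipid droplet gene *plin6*, of xanthophore carotenoid droplets, was higher too (1.56 ± 0.23, 1.24 ± 0.26 and 1.23 ± 0.19). The carotenoid uptake receptor gene *scarb1*, which also takes up lipid in other tissues, was lower in all 3 (-1.59 ± 0.20, -1.90 ± 0.12 and -0.86 ± 0.14), with 394 to 445 CPM in AB and 107 to 273 CPM in the line. The transporter gene *slc2a11b* was lower in scoliotic (-1.24 ± 0.35) and *kif7co63/+* fish (adjusted p = 0.012), and *csf1b* was higher in the homozygotes (0.89 ± 0.19 scoliotic and 1.25 ± 0.16 non-scoliotic).

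Of 11 other iridophore genes, 3 were higher in scoliotic, 5 in non-scoliotic and 3 in *kif7co63/+* fish, and none was lower, against 19.2%, 21.2% and 18.6% of all genes higher. The transcription factor gene *tfec* was higher in the homozygotes (0.94 ± 0.23 and 0.91 ± 0.22), *foxd3* (0.71 ± 0.17, 0.64 ± 0.19 and 1.33 ± 0.14) and the endothelin receptor gene *ednrba* (0.51 ± 0.15, 0.64 ± 0.17 and 1.06 ± 0.16) in all 3 groups. The kinase gene *ltk* was higher in non-scoliotic fish (0.84 ± 0.28) and its ligand gene *alkal2b* in *kif7co63/+* fish (1.03 ± 0.16). The paralogs of the members that were called included the phosphorylase genes *pnp5b* (1.52 ± 0.20, 1.89 ± 0.28 and 1.71 ± 0.23), *pnp4b* (0.61 ± 0.17, 1.09 ± 0.13 and 1.59 ± 0.17) and *pnp5a* (0.54 ± 0.14, 0.92 ± 0.12 and 2.66 ± 0.13), higher in scoliotic, non-scoliotic and *kif7co63/+* fish. The *kif7co63/+* fish had 134 to 155 CPM of *pnp5a* against 20.9 to 25.6 CPM in AB and 30.7 to 49.7 CPM in the homozygotes. At 4 dpf *pnp5a* was also highest in *kif7co63/+* pools, at 201 and 208 CPM against 79.3 and 81.6 CPM in AB (log2 1.39 ± 0.15, adjusted p = 0.0031). The sum of the 9 paralogs was above AB in both genotypes of the line at that age. It was 326 to 336 CPM in *kif7co63/+*, 296 to 311 CPM in *kif7co63/co63* and 234 CPM in both AB pools. The cyclohydrolase gene *gch1* was higher in scoliotic (0.65 ± 0.12) and non-scoliotic fish (0.76 ± 0.12), and the exchanger gene *slc24a4a* lower (-0.94 ± 0.18 and -1.38 ± 0.18). In all, 4 of the 9 paralogs were higher and 1 lower in scoliotic, 5 and 1 in non-scoliotic, and 3 and 0 in *kif7co63/+* fish.

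Purine synthesis genes, which supply the crystals of iridophores but serve every dividing cell, moved the other way. Of 8 tested, 5 were lower and 1 higher in scoliotic and in non-scoliotic fish, and 6 were lower in *kif7co63/+* fish. The examples were *gart* (-1.65 ± 0.12, -1.49 ± 0.14 and -0.52 ± 0.15), *atic* (-1.33 ± 0.16, -1.35 ± 0.21 and -0.84 ± 0.21), *ppat* (-1.17 ± 0.14, -0.97 ± 0.16 and -0.60 ± 0.10) and *pfas* (-0.97 ± 0.09, -0.93 ± 0.11 and -0.70 ± 0.18), and in *kif7co63/+* fish also *impdh1b* (-0.76 ± 0.11) and *prps1a* (-0.64 ± 0.12), with *gart* at 66.3 to 72.1 CPM in AB and 19.8 to 57.3 CPM in the line. In AB animals 5 of the 8 rose and 2 fell with age, where 7116 of 23474 genes tested were called higher and 6631 lower. The ovary marker sum was lower in the line as well, and its part in these differences was not tested.

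Of 6 neural crest genes, *tfap2a* (0.79 ± 0.15 and 0.64 ± 0.13), *erbb3b* (0.59 ± 0.12 and 0.72 ± 0.11) and *sox10* (0.40 ± 0.12 and 0.41 ± 0.09) were higher and *tfap2e* lower (-1.23 ± 0.18 and -1.33 ± 0.15) in scoliotic and non-scoliotic fish, and none was called in *kif7co63/+* fish. Of 5 tested pigment hormone genes, *asip2b*, an agouti gene, was higher in scoliotic (1.34 ± 0.20), non-scoliotic (1.64 ± 0.18) and *kif7co63/+* fish (1.34 ± 0.12), and *asip1*, the agouti gene that lightens the belly, in non-scoliotic (0.58 ± 0.16) and *kif7co63/+* fish (0.71 ± 0.15). Of 4 stripe patterning genes found in the table, 3 were higher in each homozygous group and 2 in *kif7co63/+* fish. The channel gene *kcnj13* was higher in all 3 (0.73 ± 0.11, 0.60 ± 0.11 and 0.91 ± 0.12), the adhesion gene *igsf11* in the homozygotes (1.18 ± 0.23 and 1.43 ± 0.24), and the tetraspanin gene *tspan36* in all 3 by far the most. Between scoliotic and non-scoliotic fish no gene of these lists was called by edgeR.

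The tetraspanin gene *tspan36* separated the *kif7co63* line from AB at both ages. It had 4 to 12 reads (0.0573 to 0.203 CPM) in each of the 5 AB libraries and 430 to 2296 reads (9.95 to 44.2 CPM) in each of the 13 libraries of the line, *kif7co63/+* included. The log2 fold changes were 6.88 ± 0.38 in scoliotic, 6.63 ± 0.48 in non-scoliotic and 6.74 ± 0.33 in *kif7co63/+* fish, and 8.50 ± 0.66 and 7.30 ± 0.34 in *kif7co63/co63* and *kif7co63/+* pools. From 4 dpf to 6 wpf its log2 change in AB was 0.80 ± 0.98 (adjusted p = 0.51). At 4 dpf few other list genes were called. In *kif7co63/+* pools these were, beside *tspan36* and *pnp5a* (1.39 ± 0.15), *tyrp1a* (0.68 ± 0.15) and *ednrba* (0.97 ± 0.16), both higher, and *slc45a2* (-0.86 ± 0.19), lower. From 4 dpf to 6 wpf in AB, 8 of 12 other melanophore, 5 of 12 other xanthophore, 5 of 11 other iridophore and 4 of 6 neural crest genes fell, and 2 xanthophore genes of the lists rose. In that comparison 58.6% of all genes were called, 28.2% of all genes as lower.

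Over the 12 fish at 6 wpf the members varied together in part. Pearson's r of log2 CPM was 0.973 between *tyrp1b* and *pmela* and 0.933 between *pmela* and the xanthophore gene *aox5*. After the group means were removed these were 0.950 and 0.844. This did not hold in every group, since AB fish 1 had the highest *tyrp1b* (49.5 CPM) and the lowest *pmela* (26.5 CPM) of the AB fish. By contrast *dct* had r of -0.008 with *tyrp1b* and -0.037 with *pmela* over all fish, but 0.606 and 0.555 within groups. Scoliotic fish 2 was above its group mean for *dct* (0.61), *tyrp1b* (0.40) and *pmela* (0.51, log2). Among AB fish *dct* and *pmela* deviated from the group mean in opposite directions, so the values within groups do not hold for each group. The correlation of *xdh* with *aox5* was 0.059 over all fish and -0.058 within groups. The fish of a group share the genotype, but tissue markers differed between them. The ovary marker sum was 1.26 to 511 CPM in non-scoliotic fish, and the epithelium sum 31.2 to 67.5 CPM in scoliotic fish. Their part in these correlations was not tested, and the correlations are descriptions.

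Among 19787 other genes with a mean of at least 1 CPM at 6 wpf, those most like the mean of the melanophore members over the 12 fish were CABZ01074130.1 (r = 0.966), the fin fold gene *and2* (0.964), and the lens genes *lim2.4* (0.957), *crygm2d9* (0.954) and *crygm2d8* (0.952). For the xanthophore members they were NC_002333.4 (0.941), *cyp1d1* (0.939), CU651662.1 (0.939), *efcab7* (0.934) and CR391987.1 (0.932). For *pnp4a* they were *apoda.1* (0.933), *krt91* (0.925), *lgals3b* (0.924), *tspan34* (0.919) and *slc44a5b* (0.919). These are descriptions over 12 fish that fall into 4 groups.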

How the data were processed

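Whole-animal RNA-seq of 18 libraries was analysed from read counts per gene, which the authors deposited without normalization. Per the submitters' processing notes, fastp, HISAT2, StringTie, featureCounts and DESeq2 were used with GRCz11, without a role for each. Whether counting used strand, and the annotation release, are not given in the sources used here. Another deposited table, of fold changes and p-values between scoliotic and *kif7co63/+* fish, was not used. Number of per-sample columns left out: 0.

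Groups came from the sample labels, and a count of 10 or more (filterByExpr, total 15) was asked of each gene, which all 10 members met in every comparison. Counts were tested over all genes by edgeR 4.0.16 (R 4.3.3) with TMM scaling, glmQLFit and glmQLFTest on the compared groups only, and Benjamini-Hochberg adjustment, called under 0.05. SEs were taken from the fold change and its F value. CPM used TMM sizes over all 18 libraries, and log2 CPM a prior count of 2. The scripts were tested on simulated data. Alternatives were RLE scaling, DESeq2 1.42.0, no filter, a replicate block, a joint fit and each library left out. The p-values measure the spread between single fish or pools of a group.

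The members and gene lists were chosen with earlier results of these data known. Named in the text are all 10 members, up to 4 called genes with the largest change per list and comparison, genes with the 5 highest correlations per cell class, and *csf1a*, *csf1b*, *csf1ra*, *gart*, *gch1*, *pnp5a* and *ppat* wherever they fall outside that rule, which were then chosen after their values were seen. For *adsl* and *agrp* no reads were counted and *gja4* was not found. For age comparisons lists are given by counts. Lists of liver, skeletal muscle, photoreceptor and ovary markers served to describe tissue makeup. The promoter motif search of the design was not run, since promoter sequences were not used here.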

Additional observations from a re-analysis of the deposited data

Results flagged for a closer look

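In 5 results the difference between a *kif7co63* group and AB changed between 4 dpf and 6 wpf by a test of that change itself. All were in *xdh* or *aox5* and all toward higher values at 6 wpf, while the third xanthophore gene, *gch2*, was not called in these contrasts. For *xdh* the change was 1.75 (log2) in scoliotic, 1.15 in non-scoliotic and 1.97 in *kif7co63/+* animals. For *aox5* it was 1.62 in scoliotic and 1.49 in non-scoliotic animals. In these tests the homozygous groups share the *kif7co63/co63* pools at 4 dpf, and all share the AB libraries. No group held enough libraries to look for a single library that stands apart by a fixed rule.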

How the results depend on the processing

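Over the alternatives that leave out no library, 700 values of single members kept their direction and side of the threshold, 17 passed it, 6 no longer passed it and 7 turned sign. With each library left out in turn, these counts were 832, 29, 40 and 59. The values that turned sign in the first set were all of uncalled members: *mitfa* in *kif7co63/co63* against AB pools at -0.27 under the replicate block and under the crossed block described below, *dct* in *kif7co63/+* against AB pools at -0.0018 with RLE scaling, -0.0015 with DESeq2 and -0.00077 with all libraries of the age in 1 fit, and *tyr* in *kif7co63/co63* against *kif7co63/+* pools at 0.0017 with RLE scaling and 0.00026 with DESeq2. The cause was not tested.

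Counts of called members moved in the joint fit of all libraries of an age, to 8 in scoliotic and 5 in non-scoliotic fish against AB and to 0 in *kif7co63/+* against AB pools. Over all genes this fit called 10765 in scoliotic and 10556 in non-scoliotic fish against AB. Called members were 2 in *kif7co63/+* against AB pools without a filter, 1 between scoliotic and non-scoliotic fish with DESeq2, and 3 in the *kif7co63/+* age contrast with DESeq2. Counts over all genes moved between scoliotic and non-scoliotic fish, from 84 to 420 with DESeq2 and 138 in the joint fit. Against AB pools *kif7co63/co63* went from 114 to 639 with DESeq2, 519 without a filter and 278 jointly, and *kif7co63/+* from 1381 to 2501, 2796 and 21. Between *kif7co63/co63* and *kif7co63/+* pools the count went from 8 to 243, 80 and 45, and in the *kif7co63/+* age contrast from 1841 to 2964 with DESeq2.

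Replicate numbers of the sample titles are shared between groups, but the labels give them no common clutch or day. At 4 dpf the headers of the count columns number the pools of the line otherwise. They give 3 and 4 for *kif7co63/+* and 2 and 3 for *kif7co63/co63*. The replicate block used the numbers of the titles. Correlations of deviations between same-numbered scoliotic and non-scoliotic fish were 0.434, 0.293 and 0.0379, each the highest of its non-scoliotic fish. From the scoliotic side, fish 3 was closest to non-scoliotic fish 2 (0.0757). The numbers were not taken as pairs, though these values do not settle it. With the number as a block, members called were 6, 4 and 6 in scoliotic, non-scoliotic and *kif7co63/+* fish against AB. Over all genes 7874, 7883 and 7588 were called in these fits, in that order. There *tyr* (0.92, adjusted p = 0.0526) in scoliotic and *aox5* (0.50, adjusted p = 0.0574) in *kif7co63/+* fish were not called, while *gch2* (0.74, adjusted p = 0.0156) and *xdh* (0.31, adjusted p = 0.0401) in scoliotic and *dct* (-0.39, adjusted p = 0.0492) in non-scoliotic fish were. Over all genes the block gave 29 between scoliotic and non-scoliotic fish, 526 in *kif7co63/co63* against AB pools and 264 against *kif7co63/+* pools. For AB and *kif7co63/co63* pools a correlation of -0.125 led to a crossed block, chosen after seeing the data, with 562 genes and no member called and *mitfa* at -0.27. By the column headers, the crossed block sets AB pool 2 with the *kif7co63/co63* pool that is also numbered 2.

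Leaving out 1 library gave 2 to 6 called members in scoliotic, 3 to 4 in non-scoliotic and 5 to 7 in *kif7co63/+* fish against AB, 1 to 2 in either homozygous group against *kif7co63/+* fish and 0 between them. At 4 dpf it gave 0 to 5, 0 to 2 and 0 to 6 (*kif7co63/co63* and *kif7co63/+* against AB, and against each other), with age 9 to 10 in AB, 8 to 9 in *kif7co63/+* and 5 to 7 in *kif7co63/co63*, and in the age contrasts 1 to 6 (scoliotic), 1 to 5 (non-scoliotic) and 1 (*kif7co63/+*). Over all genes the ranges in the same order were 7139 to 9608, 7514 to 9359, 5195 to 9202, 5318 to 7971 (scoliotic), 5296 to 7870 (non-scoliotic), 36 to 92, 248 to 2391, 117 to 5240, 80 to 7498, 12048 to 13121, 9045 to 12213, 7572 to 10264, 1278 to 6665, 1247 to 6579 and 597 to 1683.

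Log2 values that turned sign when 1 library was left out ranged as follows. Against AB at 6 wpf it was *dct* in *kif7co63/+* fish, -0.26 to 0.071. Between scoliotic and non-scoliotic fish they were *dct*, -0.31 to 0.26, *pmela*, -0.0055 to 0.49, *aox5*, -0.083 to 0.32, and *pnp4a*, -0.20 to 0.090. Against *kif7co63/+* fish they were *tyrp1b*, -0.043 to 0.36, and *gch2*, -0.0083 to 0.27, in scoliotic and *mitfa*, -0.16 to 0.11, and *pmela*, -0.10 to 0.17, in non-scoliotic fish. In *kif7co63/co63* against AB pools they were *mitfa*, -1.24 to 0.67, *tyrp1b*, -1.67 to 0.27, *dct*, -1.31 to 0.10, *pmela*, -1.53 to 0.68, *slc24a5*, -0.40 to 1.09, *gch2*, -0.46 to 0.20, and *pnp4a*, -0.19 to 0.28. In *kif7co63/+* against AB pools they were *dct*, -0.070 to 0.058, *gch2*, -0.28 to 0.38, and *pnp4a*, -0.32 to 0.16. In *kif7co63/co63* against *kif7co63/+* pools they were *mitfa*, -1.71 to 0.18, *tyr*, -0.21 to 0.16, *tyrp1b*, -1.84 to 0.079, *dct*, -1.30 to 0.094, *pmela*, -1.82 to 0.37, *slc24a5*, -1.04 to 0.43, *gch2*, -0.47 to 0.12, and *aox5*, -0.51 to 0.17. With age they were *pnp4a* in *kif7co63/+*, -0.047 to 0.14, and *tyrp1b*, -1.90 to 0.073, and *aox5*, -0.45 to 0.27, in *kif7co63/co63* animals. In the age contrasts they were *mitfa*, -0.19 to 1.70, and *dct*, -0.37 to 1.03, in scoliotic, *mitfa*, -0.39 to 1.51, *tyr*, -0.12 to 0.42, and *dct*, -0.43 to 0.97, in non-scoliotic, and *mitfa*, -0.33 to 0.12, and *dct*, -0.21 to 0.12, in *kif7co63/+* animals. With 2 pools a group at 4 dpf, the *kif7co63/co63* values of the melanophore genes there are set by which pool is kept.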

Other observations

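Genes within 50000 bases of *tspan36* on chromosome 8 (29670527 to 29851706) were looked up after its values were seen. Of the 8 genes there, *tspan36* included, the other 7 mostly had few reads in the 5 AB libraries and more in the 13 libraries of the *kif7co63* line. Reads were 0 in every AB library and 0 to 133 in the line for *prf1.6*, 0 and 0 to 142 for AL928845.1, and 0 to 2 and 15 to 129 for *prf1.5*. For the macrophage gene *mpeg1.1* they were 1 to 20 and 43 to 512, and for *si:ch211-103n10.5* 0 to 37 and 11 to 1688. The kinase gene *mapk4* had 5 to 15 and 90 to 327 reads, and the phosphate transporter gene *slc20a2* 207 to 428 and 1033 to 4097 reads.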
